A study of Sus scrofa with 21 samples.

Results

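Uterine lining taken where a conceptus was attached was compared with lining from elsewhere in the same kind of pregnant uterus, away from any attachment (the inter-site), on day 24 after insemination. The comparison rests on 6 of the 21 arrays of the study, 3 of attachment sites and 3 of inter-sites, chosen by the titles of the samples and not by any measured value. All sows were Large White of unstated age. Those of both day 24 groups had been inseminated 2 times after heat was detected and were pregnant, and the study took 3 sows on each of days 13, 18 and 24, 9 in all. The remaining arrays, 3 in each group, were attachment sites and inter-sites of days 13 and 18 and endometrium of non-pregnant sows that had received inactivated sperm and were killed on day 13. By the labels every sow sampled on day 24 thus carried conceptuses, and the inter-site is tissue of a pregnant uterus and no substitute for a non-pregnant one. The labels do not tie arrays to sows, so an attachment-site and an inter-site array could not be paired. With 3 sows on day 24 and 6 arrays, arrays of both groups must share sows if the counts of sows are complete. The arrays were tested as separate samples. The p-values rest on the spread within groups pooled over all 21 arrays of the study, not on that of these 6 alone. They do not measure the spread between sows.

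In the pig the placenta does not invade the uterus: trophoblast lies against the intact uterine epithelium and attaches to it, and the embryo is fed by secretions of the uterine glands, the histotroph. Conceptus tissue makes oestrogens and cytokines that act on the endometrium beside it, and the endometrium answers with changes in secretion, transport, immune signalling and blood supply. Because the apposed membranes cling to the uterine surface, a sample of an attachment site can hold conceptus as well as maternal tissue.

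Levels are log2 spot signals relative to the 75th percentile of the signals on the same array, so a level of 0 is a probe at that percentile, and a difference of 1 is a doubling. On the 6 arrays between 63.3% and 77.1% of spots were well above background, and 0 were saturated. The arrays of the attachment sites correlated with each other at 0.975 to 0.986 over all probes tested. The inter-site arrays were less alike, at 0.942 to 0.960, and none had its best match within its own group. Replicate 1 matched an inter-site array of day 18 best, at 0.973. Replicate 2 matched an attachment-site array of day 24 best, at 0.977. Replicate 3 stood apart: its best match was a non-pregnant array, at 0.988. On inter-site replicate 3 DKK1, a secreted WNT inhibitor, had a level of -6.13. The other levels of DKK1 were 5.25 and 4.74 on inter-site replicates 1 and 2 and 4.92, 5.20 and 3.54 at attachment sites. The progesterone receptor gene PGR had 3.04 on inter-site replicate 3, above the 1.26 and 1.39 of replicates 1 and 2. Whether inter-site replicate 3 comes from a pregnant sow of day 24, as labelled, was not tested. The authors' table of normalised values exchanges replicates 2 and 3 of the inter-sites relative to the scanner files, and the numbers used here are those of the scanner files. The counts and many of the values are therefore given also without the array called inter-site replicate 3.

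Markers of endometrium that carried a gene name were detected: all 9 epithelium markers and all 3 stromal fibroblast markers were above background on all 6 arrays. So were 26097 of all 30091 probes tested, so their detection does not test the tissue label. EPCAM, an adhesion protein of epithelial cells, had levels of 5.26, 5.53 and 5.22 at attachment sites and of 5.58, 5.37 and 5.62 at inter-sites. DCN, the stromal proteoglycan decorin, had 8.03, 8.13 and 7.81 against 7.27, 8.30 and 8.01. For both genes the groups overlapped, and the differences were -0.19 (SE 0.28, adjusted p = 0.92) and 0.13 (SE 0.30, adjusted p = 0.95).

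Of 15 tested conceptus and trophoblast markers, 2 were called (0.991% of all tested genes were), the aromatase genes CYP19A3 and CYP19A1 described below. The summed level of the 15 markers, in units of the array's 75th percentile, was 266 to 707 at attachment sites and 19.1, 33.8 and 210 at inter-sites, against 15.9 to 17.6 in non-pregnant sows. PAG6, a pregnancy-associated glycoprotein secreted by trophoblast, had levels of 6.30, 7.94 and 8.18 at attachment sites and of 2.18, 5.78 and -4.96 at inter-sites. Inter-site replicate 2 therefore lay close to the attachment sites in PAG6, whereas replicate 3 lay far below. PLET1, a surface protein of trophoblast, had 7.30, 8.56 and 8.47 against 2.79, 6.95 and -4.13, the same order of inter-site arrays. With this wide inter-site spread neither difference passed the test: PAG6 had 6.47 (adjusted p = 0.33) and PLET1 6.24 (SE 2.07, adjusted p = 0.35), and without inter-site replicate 3 they had 3.49 and 3.24. Of the 15 markers, 11 had a positive and 4 a negative difference, 6 had groups that did not overlap in the higher direction, where 10.7% of all genes had, and the median difference was 0.55 (0.49 without inter-site replicate 3). Among the other defining markers on the array, RTL1 was not well above background on any of the 21 arrays and CYP19A2 was so on 1.

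Transcripts of embryonic blood, yolk sac and liver had positive differences in 8 of 9 genes, none of them called. HBE1, the embryonic globin chain, had levels of 8.53, 6.45 and 8.46 at attachment sites and of 4.34, -0.18 and -2.43 at inter-sites. AFP, the fetal serum protein made by yolk sac and liver, had -0.39, 3.11 and 3.29 against -4.16, -2.11 and -7.50. In both genes every attachment site lay above every inter-site. The differences were 7.24 for HBE1 (SE 1.54, adjusted p = 0.064) and 6.59 for AFP (SE 1.38, adjusted p = 0.059), and 5.73 and 5.14 without inter-site replicate 3. Of the 9 markers in the list 0 were called, and their median difference was 1.46, or 0.60 without that array. The part of conceptus RNA in the site differences that follow was not tested. In tissue samples, fewer cells of a type and less RNA per cell cannot be told apart.

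**Figure D1:**
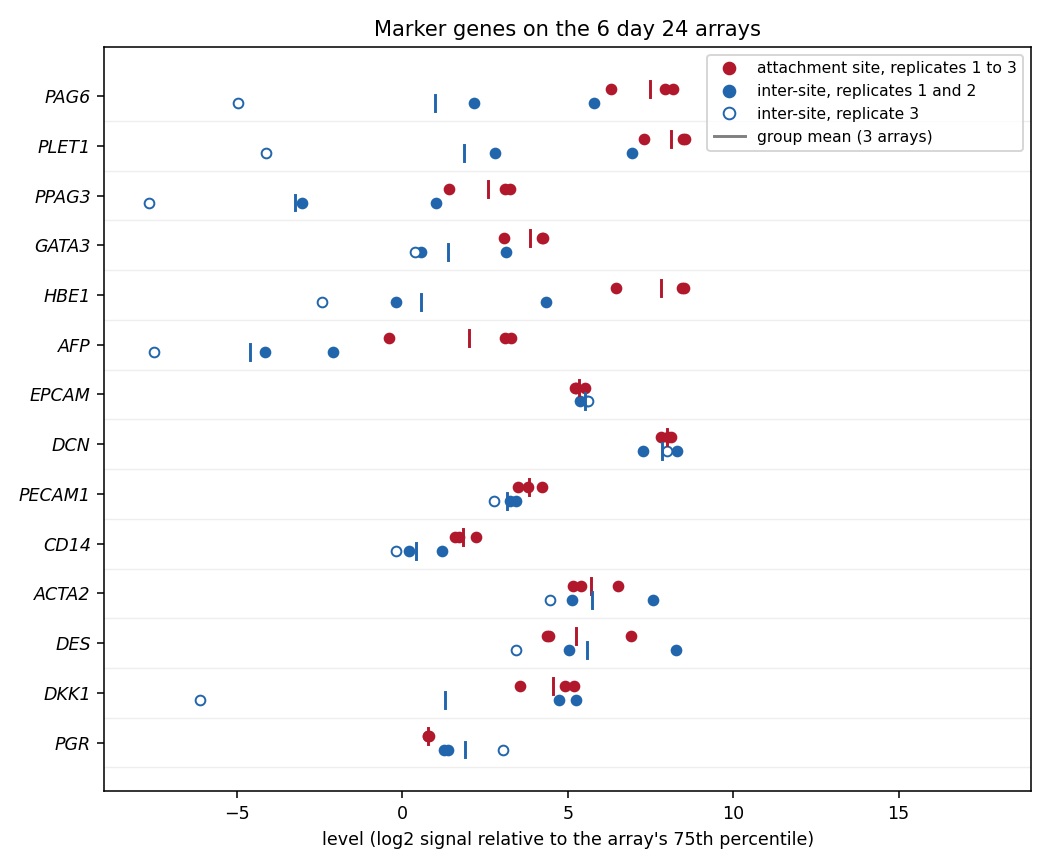
Levels of marker genes of trophoblast (PAG6, PLET1, PPAG3, GATA3), embryonic blood and liver (HBE1, AFP), epithelium, stroma, endothelium, macrophages and smooth muscle, and of DKK1 and PGR, on the 6 day 24 arrays; the horizontal axis is the log2 level (0 is the 75th percentile of an array), points are arrays and short lines are group means. The open symbols, inter-site replicate 3, are the lowest inter-site values for PAG6 (-4.96), PLET1 (-4.13), HBE1 (-2.43) and DKK1 (-6.13), while EPCAM and DCN lie together in both groups.

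Over all 30091 probes tested, 84 differed between the sites of day 24 at an adjusted p under 0.05 (0.279%): 79 were higher at attachment sites (0.263%) and 5 were lower (0.0166%). The median difference of all probes was -0.05. Of the 84 probes, 27 carried a gene symbol and named 20 of the 2018 tested genes (0.991%), and all 20 were higher at attachment sites. Those described here comprised enzymes of steroid and prostaglandin metabolism (STARD4, CYP17A1, HSD17B1, CYP19A1, CYP19A3, AKR1C1, CBR1), the cytokine IL6, the antibacterial proteins BPI and PGLYRP1, the secreted proteins CRISP3 and GRN, the haem oxygenase HMOX1, the water channel AQP8, the folate receptor FOLR1, and SCGN, SPAM1, PNPLA3 and LOC100521229. Groups that did not overlap were found for 6.25% of all probes in the higher and 7.46% in the lower direction. The 0.991% of genes called is the share to set beside the calls in the gene lists below. A single call says little about its list. On days 18 and 13 the same comparison of sites called 0 probes each, with 1412 and 2438 at an unadjusted p under 0.05, against 2420 on day 24.

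The number of calls depended on single arrays. It was 19 (0.0631%) without inter-site replicate 3, 308 without inter-site replicate 2, 44 without inter-site replicate 1, and 170, 12 and 14 without attachment-site replicates 1, 2 and 3. Of the 20 genes, 4 stayed called without inter-site replicate 3 (BPI, CYP19A3, IL6 and SCGN), 20 without inter-site replicate 2, 10 without inter-site replicate 1, and 19, 4 and 4 without attachment-site replicates 1, 2 and 3; IL6, BPI and CYP19A3 were called in all 6 of these fits. Slides 2 and 4 each held an attachment site and an inter-site, and the inter-site array of slide 2 was replicate 3. Within these slides IL6 differed by 5.37 and 3.53 at its probe with the lowest p, CYP19A3 by 5.11 and 4.54 and BPI by 6.32 and 4.48. All 84 called probes had groups that did not overlap, so their sign could not differ between slides. A fit that included the slide as a block called 22 probes, with BPI, CYP19A3, GRN, IL6 and SPAM1 as the named genes. When the 6 arrays were fitted alone, limma called 0 probes; the smallest adjusted p was then 0.252, and the unadjusted p was under 0.05 for 2366.

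**Figure D2:**
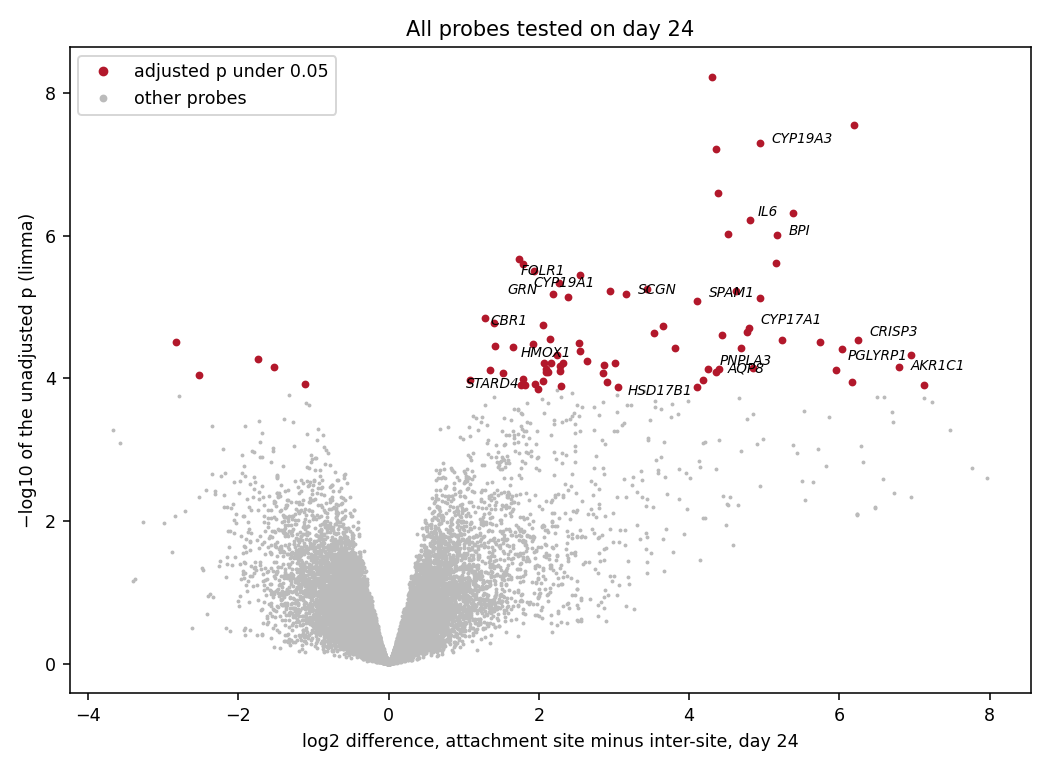
Difference between attachment site and inter-site on day 24 (horizontal axis, log2) against the negative log10 of the unadjusted p (vertical axis) for the 30091 probes tested, with the 84 called probes in red. The 79 called probes on the right reach larger differences than the 5 on the left; labels mark named genes at their called probe with the highest mean level.

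Genes of steroid metabolism formed the largest named group, and among them the enzymes that make oestrogen. Of 27 tested genes of steroid receptors and steroid metabolism, 5 were called higher and 0 lower, where 0.991% of all tested genes were called. CYP17A1 and CYP19A1 were called through probes that were not their brightest. The list's median difference was 0.15, against 0.08 for all 2018 genes. The first steps did not pass the test: CYP11A1, which cleaves cholesterol to pregnenolone, differed by 1.49 (SE 0.39, adjusted p = 0.17), and HSD3B1, which makes progesterone from it, by 1.85 (SE 0.47, adjusted p = 0.14). STARD4, a carrier of cholesterol within the cell, had levels of 0.23, 0.45 and 0.60 at attachment sites and of -1.17, -1.34 and -2.06 at inter-sites. The groups were well apart, with a difference of 1.95 (SE 0.39, adjusted p = 0.046), a 3.87-fold higher signal (difference 1.68, adjusted p = 0.25, without inter-site replicate 3); the call was kept in 1 of the 6 fits that leave out an array.

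CYP17A1, the enzyme that turns progestogens into androgens, had -3.37, -1.54 and -1.49 at attachment sites and -8.66, -4.79 and -7.35 at inter-sites. It was well above background on all attachment-site arrays but on only 1 inter-site array, and the difference was 4.80 (SE 0.82, adjusted p = 0.0213; 4.59 and 0.14 without inter-site replicate 3). HSD17B1, which reduces oestrone to oestradiol, had -1.66, -0.07 and 0.15 against -3.64, -1.92 and -5.17. Its difference of 3.05 (SE 0.62, adjusted p = 0.0477) became 2.25 (adjusted p = 0.24) without inter-site replicate 3.

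The aromatases convert androgens to oestrogens, and the pig has a family of closely related aromatase genes whose probes may not be fully specific. CYP19A3 had levels of -3.69, -2.27 and -2.37 at attachment sites and of -8.88, -6.81 and -7.48 at inter-sites. It was well above background on the 3 attachment-site arrays and on 0 of the 18 other arrays of the study. Its signal was therefore at least 8.37-fold higher at attachment sites, the group mean set against the lowest signal that counts as above background on the inter-site arrays; the fitted difference was 4.95 (SE 0.53, adjusted p = 0.000452). Leaving out any of the 6 arrays gave 4.37 to 5.40, and the call was kept each time. The probe entered the test only through the day 24 attachment sites, the group where it was high. It was also called without a filter on dim probes. A CYP19A1 probe was also called, with -2.73, -1.22 and -1.74 against -5.02, -4.39 and -5.15 (difference 2.95, SE 0.45, adjusted p = 0.00999). Without inter-site replicate 3 it had 2.80 (adjusted p = 0.073), and the call was also lost without attachment-site replicate 2 or 3 and with slide as a block. The second and brighter CYP19A1 probe did not differ by more than its error (0.05, adjusted p = 0.99), so the 2 probes of that gene disagree.

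The receptors PGR and ESR1 did not pass the test. PGR had levels of 0.77, 0.79 and 0.81 at attachment sites, below the 1.26, 1.39 and 3.04 of the inter-sites, and differed by -1.11 (SE 0.36, adjusted p = 0.33; -0.54 without inter-site replicate 3). The oestrogen receptor ESR1 differed by -0.96 (SE 0.41, adjusted p = 0.55).

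Reductases of steroids and prostaglandins followed. AKR1C1, an aldo-keto reductase that inactivates progesterone, had levels of 5.17, 5.09 and 6.34 at attachment sites and of -0.71, 1.93 and -4.99 at inter-sites. All attachment sites were above all inter-sites, which themselves spread over a wide range in the order of PAG6: replicate 2 highest and replicate 3 lowest. The difference was 6.79 (SE 1.29, adjusted p = 0.0369), and 4.92 (adjusted p = 0.16) without inter-site replicate 3. Of the other probes on the same transcript, a probe had 7.13 (adjusted p = 0.0463) and another 6.70 (adjusted p = 0.074), while a probe designed on another transcript that the gene table also names AKR1C1 had -1.33 (adjusted p = 0.90); members of this enzyme family are alike in sequence, and the assignment is uncertain. CBR1, a carbonyl reductase that converts E to F prostaglandins, had 2.64, 2.93 and 3.28 against 1.93, 0.39 and 0.36, a difference of 2.06 (SE 0.35, adjusted p = 0.0205; 1.79 and 0.14 without inter-site replicate 3). AKR1B1, a prostaglandin F synthase, had 3.50, 4.45 and 5.68 against 1.75, 2.91 and 1.52, and its difference of 2.48 (SE 0.57, adjusted p = 0.087) missed the threshold. The synthases further up did not pass either: PTGES differed by 0.74 (adjusted p = 0.76) and PTGS2 by 0.16 (adjusted p = 0.99). Of 13 tested prostaglandin genes, 2 were called higher and 0 lower (0.991% of all tested genes were called), with a median of 0.28 (0.51 without inter-site replicate 3).

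**Figure D3:**
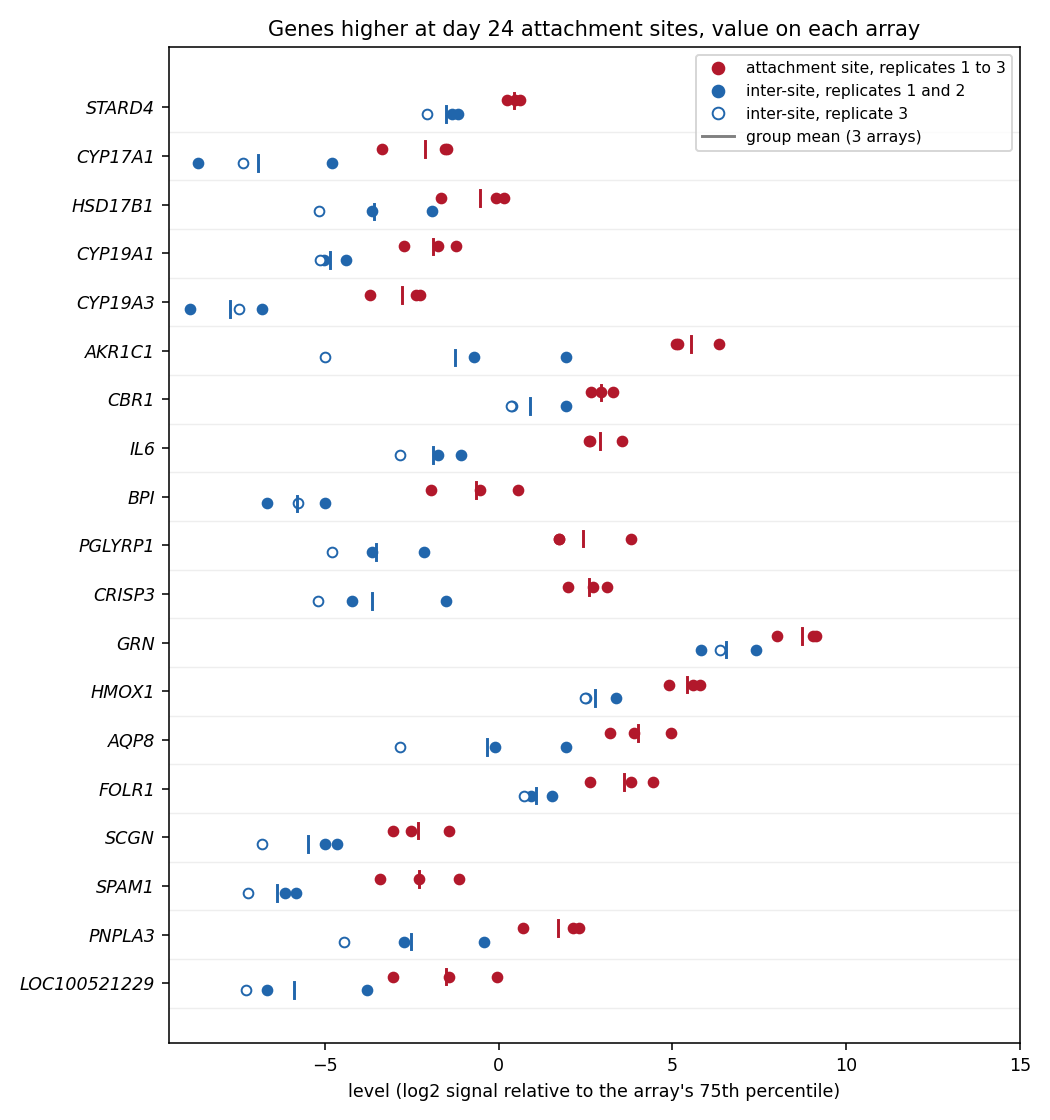
Levels of 19 called genes on each day 24 array, each at its called probe with the highest mean level; the horizontal axis gives the log2 level, 0 being the 75th percentile of an array, and short lines are group means of 3 arrays. In every gene the 3 attachment sites (red) lie to the right of the 3 inter-sites (blue); the gap is narrow for CBR1 and wide for IL6, CRISP3 and AKR1C1, whose inter-site replicate 3 (open) lies at -4.99.

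IL6, an inflammatory cytokine, gave the smallest p of all probes tested. Its probe with the highest level had 2.59, 2.61 and 3.56 at attachment sites and -1.74, -1.09 and -2.84 at inter-sites, a 28.1-fold higher signal (difference 4.81, SE 0.62, adjusted p = 0.00256). A second probe, with 0.42, -0.10 and 1.12 against -3.60, -3.63 and -4.25, differed by 4.30 (SE 0.40, adjusted p = 0.000178) and by 3.98 to 4.59 when any 1 array was left out. All 3 IL6 probes were called, with differences of 4.30 to 4.94, and in each every attachment site lay above every inter-site. At the brightest probe the inter-sites lay in the order of PAG6, replicate 2 highest and replicate 3 lowest; at the second probe replicate 1 and replicate 2 were nearly level and replicate 3 again lowest.

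No other gene of the IL6 pathway was called. The receptor chain IL6R differed by 0.50 (adjusted p = 0.88) and the signal-transducing chain IL6ST by 0.63 (adjusted p = 0.90). SOCS3, a feedback inhibitor induced by this pathway, had -1.83, -2.43 and -2.42 at attachment sites, above the -3.39, -2.97 and -3.71 of the inter-sites, but the difference of 1.13 (SE 0.43, adjusted p = 0.46) did not pass. LIF, a related cytokine, differed by 1.05 (SE 0.58, adjusted p = 0.72). Among 50 tested cytokines, chemokines and receptors IL6 was the only one called; the median was 0.19, with SPP1, the adhesive phosphoprotein osteopontin, at 2.05 (adjusted p = 0.40), IL1A at 1.52 (adjusted p = 0.49) and the neutrophil chemoattractant CXCL8 at -1.39 (adjusted p = 0.76).

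The antibacterial proteins BPI and PGLYRP1 were higher at attachment sites. BPI, which binds endotoxin of Gram-negative bacteria, had -1.94, -0.53 and 0.55 at attachment sites and -6.66, -5.01 and -5.77 at inter-sites, where a single array was well above background. The groups were far apart, and the difference of 5.17 (SE 0.69, adjusted p = 0.00332) was 5.20 (adjusted p = 0.02) without inter-site replicate 3; a second probe had 5.53 (adjusted p = 0.072). The called BPI probe entered the test only through the day 24 attachment sites, the group where it was high. PGLYRP1, which binds bacterial peptidoglycan, had 1.74, 1.73 and 3.81 against -3.65, -2.16 and -4.79. Its difference was 5.96 (SE 1.15, adjusted p = 0.0369), and 5.33 (adjusted p = 0.21) without inter-site replicate 3. Of 24 tested Toll-like receptor and antibacterial genes these 2 were called higher and 0 lower (0.991% of all tested genes were called), and the list's median was 0.06. BPI and PGLYRP1 are also stored in granulocytes, and whether granulocytes contributed to their differences was not tested. Of 7 tested granulocyte and mast cell markers 0 were called, where 0.991% of all tested genes were. Their median was -0.24, with 2 positive and 5 negative differences, the highest 0.53. The calgranulins S100A8 and S100A9 differed by -0.53 (adjusted p = 0.94) and -0.85 (adjusted p = 0.95). CD14, the macrophage receptor for endotoxin, had 2.23, 1.72 and 1.59 against 0.20, 1.21 and -0.18, a difference of 1.44 (SE 0.45, adjusted p = 0.30).

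Among secreted uterine proteins CRISP3 and GRN were called, 2 of 24 tested, with 0 lower (0.991% of all tested genes were called). CRISP3, a cysteine-rich secretory protein, had levels of 1.99, 2.70 and 3.11 at attachment sites and of -4.22, -1.51 and -5.21 at inter-sites, where it was well above background on 2 of 3 arrays. The difference was 6.24 (SE 1.10, adjusted p = 0.0256), and 5.46 (adjusted p = 0.16) without inter-site replicate 3. GRN, the growth factor progranulin, was among the brighter probes on every array, with 8.01, 9.05 and 9.12 against 5.82, 7.41 and 6.38. The difference of 2.19 (SE 0.34, adjusted p = 0.01) is a 4.55-fold higher signal, and was 2.11 (adjusted p = 0.073) without inter-site replicate 3; 3 of its 4 probes were called. With the exception of GRN the abundant histotroph proteins were not called: the iron-carrying phosphatase ACP5 (uteroferrin) differed by 1.24 (SE 0.87, adjusted p = 0.80), the retinol carrier RBP4 by 1.46 (SE 1.21, adjusted p = 0.83) and the protease inhibitor CST3 by 1.74 (SE 0.48, adjusted p = 0.21). ACP5 had 9.16, 9.42 and 9.28 at attachment sites and 8.52, 9.27 and 6.35 at inter-sites, so that its difference fell to 0.40 without inter-site replicate 3. OSTN, the peptide osteocrin, had the largest difference of the list, 7.97, with an adjusted p of 0.21 and a level of -7.23 on inter-site replicate 3. The list's median was 0.74, or 0.47 without that array.

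The haem-degrading enzyme HMOX1, an oxygenase, was higher at attachment sites. It had levels of 4.89, 5.59 and 5.79 at attachment sites and 2.50, 3.37 and 2.48 at inter-sites, a 6.24-fold higher signal (difference 2.64, SE 0.49, adjusted p = 0.0354), and its other probes gave 2.53 (adjusted p = 0.0261) and 2.45 (adjusted p = 0.056). Every attachment site lay above every inter-site, and without inter-site replicate 3 the difference was 2.49, with an adjusted p of 0.19. KLF1, a transcription factor of red cell precursors, differed by 2.09 (SE 0.89, adjusted p = 0.55). In the list of angiogenic and vasoactive signals HMOX1 was the 1 gene called of 23 tested; 8 genes had groups that did not overlap in the higher direction and 0 in the lower, where 10.7% and 5.65% of all genes had. The vessel growth factor VEGFA differed by 1.11 (SE 0.53, adjusted p = 0.63) and the vessel-remodelling ligand ANGPT2 by 0.76 (SE 0.30, adjusted p = 0.48).

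Transport of water and folate was represented by AQP8 and FOLR1. AQP8, a membrane channel for water, had 3.19, 3.90 and 4.97 at attachment sites and 1.94, -0.10 and -2.85 at inter-sites. The inter-sites lay lower and far apart from each other, and the difference of 4.36 (SE 0.84, adjusted p = 0.0375) became 3.1 (adjusted p = 0.16) without replicate 3. None of the other 19 tested genes of calcium, water and ion handling was called; the pump subunit ATP1B1 differed by -1.01 (adjusted p = 0.49). FOLR1, which takes up folate, had 2.62, 3.80 and 4.44 against 0.94, 1.53 and 0.73, a difference of 2.55 (SE 0.38, adjusted p = 0.00752) and of 2.38 (adjusted p = 0.056) without inter-site replicate 3. The called FOLR1 probe was designed on another transcript than the 3 other probes of that name, which differed by -0.05 to 0.89, so the 4 probes disagree. Of 32 tested nutrient transporters FOLR1 was the 1 called. Among those not called, SLC2A2, a glucose transporter, had 3.76 (adjusted p = 0.079) but exceeded background on a single inter-site array, and SLC7A3, a carrier of cationic amino acids, had 2.94 (adjusted p = 0.43).

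The other called genes have different roles. PNPLA3, an enzyme of lipid droplets, had 0.70, 2.14 and 2.30 at attachment sites and -2.73, -0.43 and -4.46 at inter-sites (difference 4.25, SE 0.81, adjusted p = 0.0369), and a second probe had 3.54 (adjusted p = 0.0233). SCGN, a calcium-binding protein of secretory cells, had -3.05, -1.44 and -2.52 against -4.66, -5.00 and -6.83 (difference 3.16, SE 0.49, adjusted p = 0.01). It stayed called without inter-site replicate 3 (2.49, adjusted p = 0.038), whereas PNPLA3 did not (3.29, adjusted p = 0.21). SPAM1, a hyaluronidase best known from sperm, had -3.43, -2.29 and -1.14 against -6.14, -5.82 and -7.22, with 1 inter-site array well above background. Its difference of 4.11 (SE 0.65, adjusted p = 0.0107) was 3.69 (adjusted p = 0.098) without inter-site replicate 3. The uncharacterised LOC100521229 differed by 4.40 (SE 0.84, adjusted p = 0.0369; 3.72 and 0.21 without that array).

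Lists for the interferon response, for antigen presentation and for the cell types of the tissue gave no calls. The interferon response list had a median of -0.04 over 29 genes and antigen presentation 0.18 over 23, with 0 called in each. OASL, an antiviral protein, had the lowest difference of the interferon list, with -1.53, -0.94 and -1.78 at attachment sites, all below the 0.49, -0.01 and 0.72 of the inter-sites (difference -1.82, SE 0.46, adjusted p = 0.14). T and NK lymphocyte markers had a median of 0.18 over 14 genes and macrophage and dendritic cell markers 0.46 over 12. The summed level of the macrophage markers was 59.3 to 67.9 at attachment sites and 23.6 to 63.2 at inter-sites. Endothelium markers had a median of 0.63 over 10 genes, with 5 whose groups did not overlap in the higher direction (10.7% of all genes); PECAM1, an adhesion protein of endothelium, differed by 0.69 (SE 0.39, adjusted p = 0.74). Smooth muscle markers, which report how much underlying muscle a sample holds, had a median of -0.33 over 9 genes and -0.92 without inter-site replicate 3. Their summed level was 92.8 to 310 at attachment sites and 59.1 to 789 at inter-sites, the highest on inter-site replicate 2, where DES, the muscle filament desmin, had 8.26. Complement and coagulation genes (30 tested, median 0.36), growth factor, WNT and homeobox genes (32, median 0.12), adhesion molecules and mucins (25, median 0.24), the cell cycle (15, median 0.59) and immediate early genes (14, median -0.03) had 0 called, and matrix genes had SPAM1 only (30, median -0.01).

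**Figure D4:**
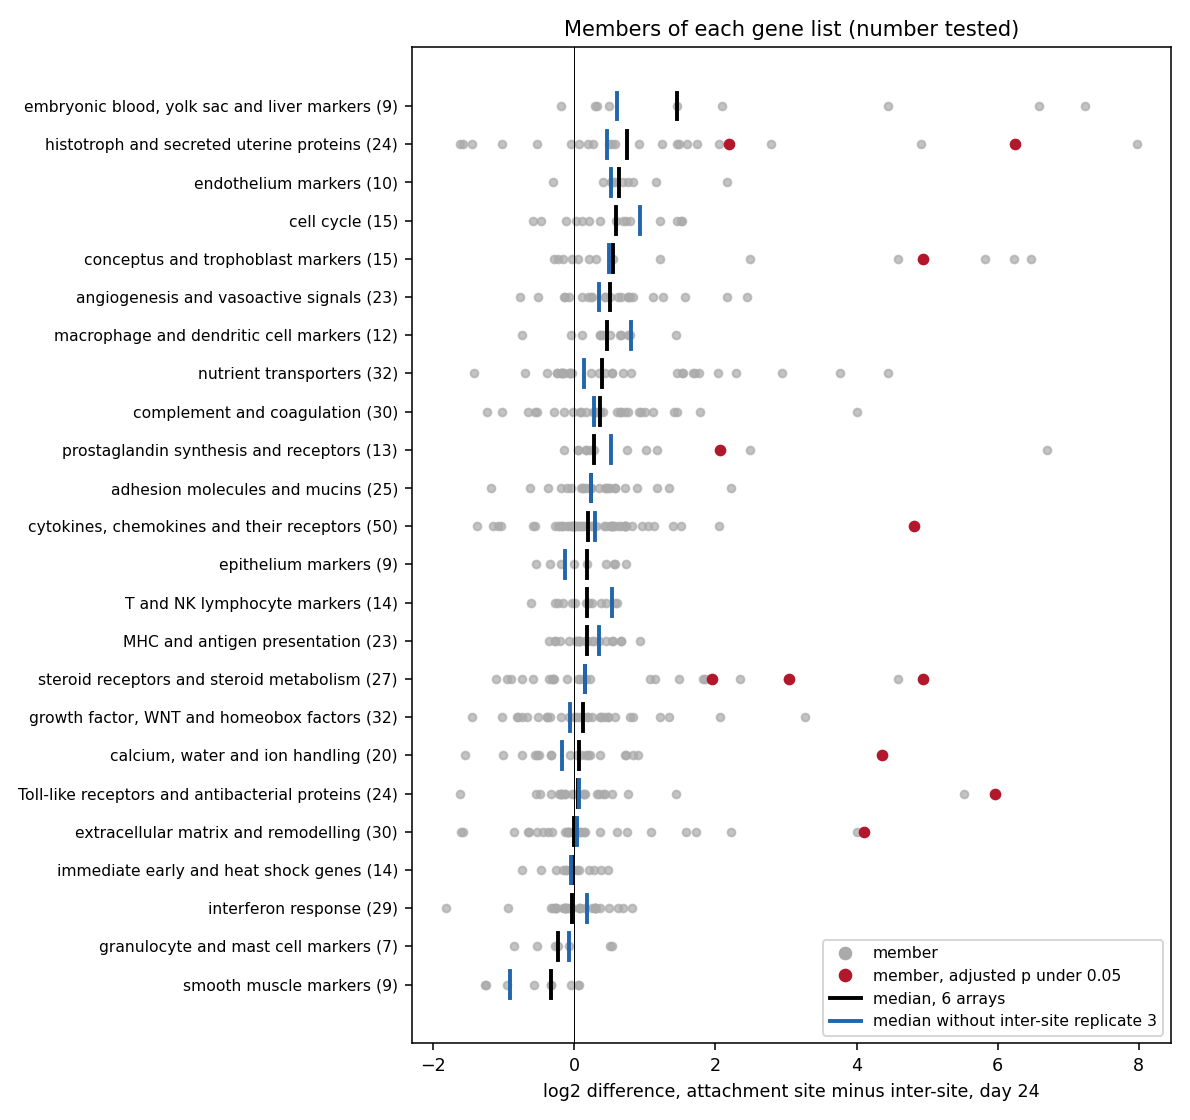
Differences between attachment site and inter-site on day 24 (horizontal axis, log2) of the members of each gene list with at least 5 tested members, each gene at its brightest probe; black lines are list medians over the 6 arrays and blue lines the medians without inter-site replicate 3. Most members lie near 0, called members (red) lie on the right, and the smooth muscle median moves from -0.33 to -0.92 without that array; AKR1C1, BPI, CYP17A1, CYP19A1, FOLR1 and HMOX1 were called through other probes and are not red here.

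Several genes differed by large amounts without being called. DPPA5, a protein of pluripotent and placental cells, had levels of 6.42, 7.67 and 7.90 at attachment sites and of 2.40, 5.64 and -1.01 at inter-sites (difference 4.98, SE 1.20, adjusted p = 0.11; 3.31 without inter-site replicate 3), the same order of inter-site arrays as PAG6. SERPINA1, a protease inhibitor of plasma, had 0.66, 4.02 and 3.98 against -2.32, -2.75 and -0.98 (4.91, SE 1.21, adjusted p = 0.12; 5.43 without inter-site replicate 3), and here inter-site replicate 3 was the highest inter-site array. The retinol-binding protein RBP7 had 3.22 (adjusted p = 0.065), the ribonuclease RNASE1 3.17 (adjusted p = 0.065), the ammonium transporter RHBG 2.80 (adjusted p = 0.077) and the trophoblast transcription factor GATA3 2.48 (adjusted p = 0.10).

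No gene with a symbol was called lower at attachment sites. The largest negative differences among genes above background on all 6 arrays and with separate groups were -1.83 for VNN1, a pantetheinase (adjusted p = 0.60), -1.82 for OASL and -1.60 for HAS3, a hyaluronan synthase (adjusted p = 0.51). VNN1 and HAS3 leaned on inter-site replicate 3, with levels of 1.06 and -0.55 there; without it they had -0.82 and -0.67. CXCL12, a chemokine of stromal cells, had -1.69, -1.78 and -2.43 against -1.43, -0.26 and -0.98, a difference of -1.08 (SE 0.72, adjusted p = 0.79) that was -1.12 without that array. A further 9 of the 2018 tested genes were well above background on all 3 inter-site arrays and on 0 attachment-site arrays, and 0 of them passed the test. Of all 2018 genes, 109 fell below background on at least 1 attachment-site array and 100 on at least 1 inter-site array. Over all 30091 probes these counts were 3391 and 2125, so attachment-site arrays lost more probes to background. ITGB6, an integrin chain of epithelium, was at least 1.46-fold higher at inter-sites by the bound described for CYP19A3 (fitted difference -1.18, adjusted p = 0.72) and the cytokine subunit IL23A at least 1.31-fold (fitted difference -1.18, adjusted p = 0.74). The bounds for SL44-1, DSPP, CD209 and NRM were 1.94-fold, 1.70-fold, 1.27-fold and 1.08-fold, and SNCB and LRRC2 lay too close to background for a fold.

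A gene symbol was lacking for 57 of the 84 called probes, 52 higher and 5 lower. The probe A_72_P341813 was well above background at the attachment sites and on 0 of the 18 other arrays, at least 15.8-fold higher than at inter-sites (fitted difference 6.19, SE 0.64, adjusted p = 0.000422). The probe A_72_P334833 differed by 4.36 (SE 0.47, adjusted p = 0.000452), and both were called whichever of the 6 arrays was left out. Both entered the test only through the day 24 attachment sites, the group where they were high. The largest called negative differences were those of A_72_P301249 (-2.83, adjusted p = 0.026) and A_72_P265297 (-2.52, adjusted p = 0.039), at least 2.44-fold and 3.69-fold higher at inter-sites because neither was well above background on an attachment-site array. Under normexp background correction, which moved the median difference of all probes from -0.05 to 0.25, all 5 lower probes changed sign. The 79 higher probes kept their sign, but only 29 of the 84 called probes and 11 of the 20 called genes stayed called. Among the genes not called under it were BPI, CYP19A3, CYP17A1, CYP19A1, HSD17B1, SCGN and SPAM1. Calls in both directions thus depend on how low signals are treated.

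Set against the whole study, the called genes were mostly those whose day 24 attachment sites lay above every other array. Of the 84 called probes, 75 had all 3 attachment-site arrays above all 18 others, as did 2.4% of all probes; the calls themselves favour probes with high attachment-site values. IL6 had group means of -4.12 in non-pregnant sows, of -3.0 and -3.08 at attachment sites and inter-sites of day 13, of -3.0 and -3.50 on day 18 and of -1.89 and 2.92 at inter-sites and attachment sites of day 24. The mean of the day 24 inter-sites thus lay above those of the earlier groups in this probe, and that of the attachment sites far above all. HMOX1 had 1.22 in non-pregnant sows, 0.77 and 0.86 at attachment sites and inter-sites of day 13, 1.20 and 0.54 on day 18, and 5.43 and 2.78 on day 24. AKR1C1 had -6.46 in non-pregnant sows, -3.86 and -4.54 on day 13 and -1.71 and -1.19 on day 18, with attachment sites first, before 5.53 and -1.26 on day 24. FOLR1, in contrast, had between 0.37 and 0.74 in the 5 earlier groups and 1.07 at the inter-sites of day 24, so only the attachment sites of day 24, at 3.62, stood out.

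The change of the site difference between days was tested in the same fit. From day 18 to day 24 it rose at 3 probes (0.00997%): CYP19A3 went from -0.49 to 4.95 (change 5.43, SE 0.75, adjusted p = 0.0232), IL6 from 0.45 to 4.30 at its second probe (change 3.86, SE 0.56, adjusted p = 0.0312), and A_72_P334833 from -0.61 to 4.36. Against day 13 it rose at 6 probes (0.0199%), among them BPI, from -1.49 to 5.17 (change 6.67, SE 0.98, adjusted p = 0.022). CYP19A3 and BPI were not well above background on any site array of days 13 and 18. A_72_P334833 was well above background on 1 inter-site array of each of those days and on 0 attachment-site arrays. The earlier differences of all these probes are between signals near background, and the size of their change is uncertain. For the other called genes the change did not pass the test, and their site difference is not shown to be limited to day 24. AQP8 had a difference of 2.03 on day 18 that did not pass the test (adjusted p = 0.98), and its change to day 24 did not pass either. Without inter-site replicate 3, 0 probes passed against day 18 and 1 against day 13.

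**Figure D5:**
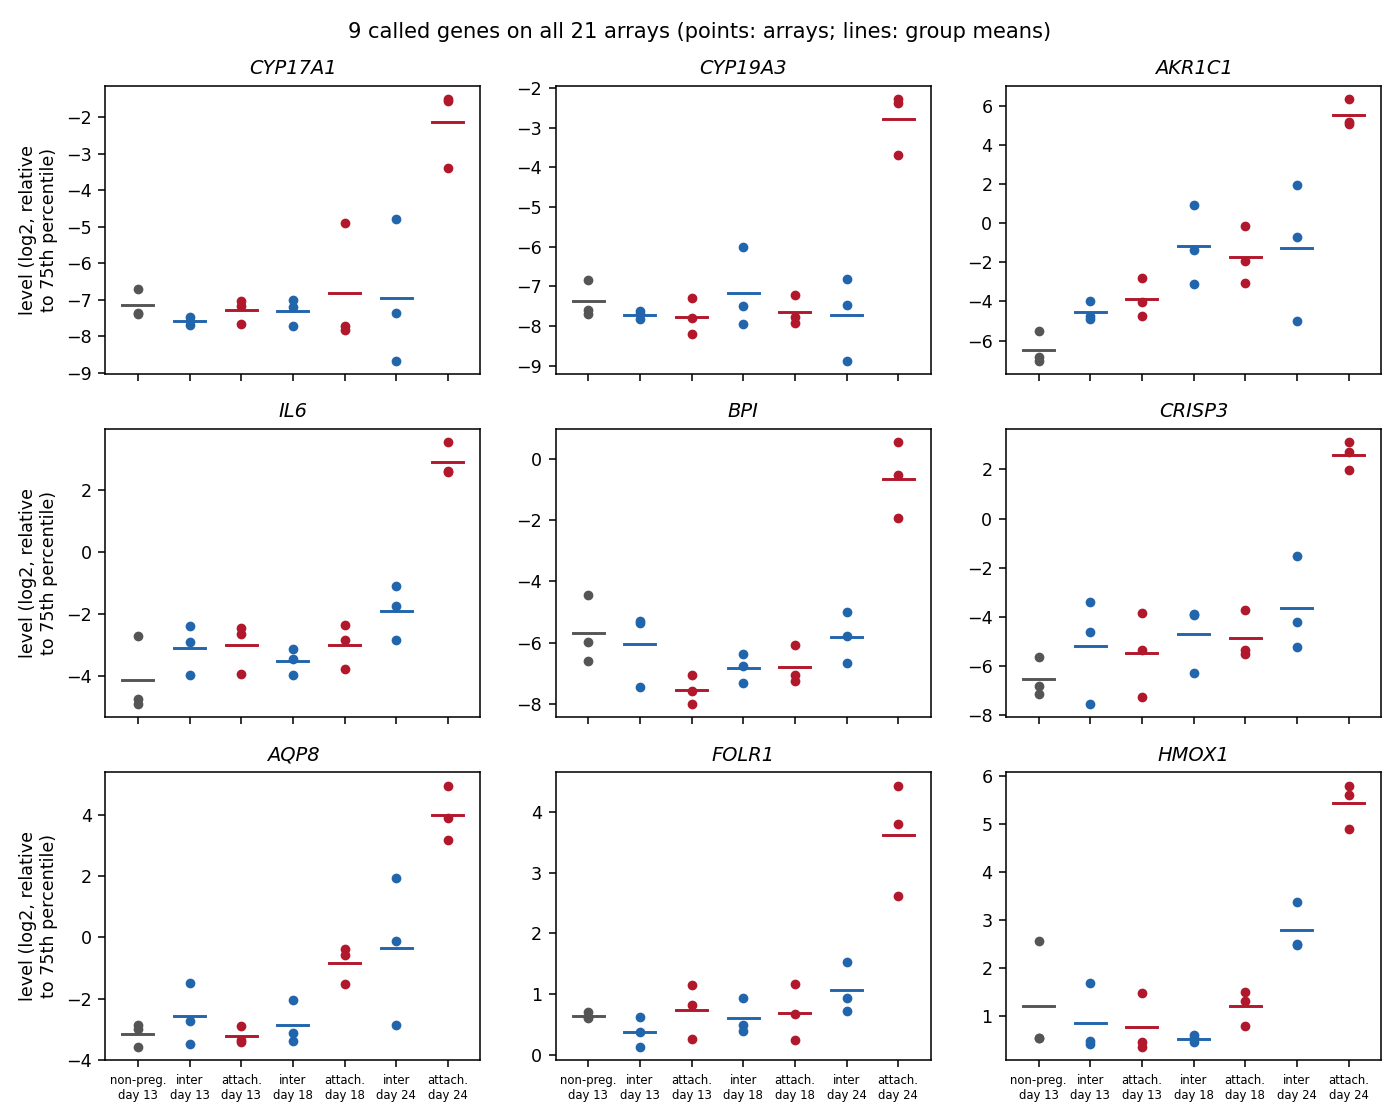
Levels of 9 called genes on all 21 arrays in the 7 groups of the study, each panel with its own vertical axis (log2 level, with 0 at an array's 75th percentile); points are arrays, lines are group means, red marks attachment sites, blue inter-sites and grey non-pregnant sows. In each panel the 3 attachment-site arrays of day 24 are the highest; for CYP19A3 the other 6 groups share one low level near background, whereas AKR1C1 and AQP8 are also raised on some day 18 and day 24 arrays.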

How the data were processed

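RNA of 21 endometrium samples was hybridised to 1-colour Agilent arrays of 45220 spots. The spot intensities are gProcessedSignal of Agilent Feature Extraction (version 10.7 per the submitters' processing notes), which per the file headers had the background subtracted and a spatial trend removed within each array. The authors' deposited table of log2 values has 1 median, 5.85, for each day 24 array and is not centred on genes; for its software and scaling no source was at hand, so these are unknown, and the table was only an alternative.

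Control spots were left out, spots of a probe were averaged, and log2 intensities were set relative to the 75th percentile of their array. On the day 24 arrays that percentile lay between 419 and 855, with a median ratio of signal to background of 2.49 to 3.92. Of 43603 probes, 30091 were tested, those that all 3 arrays of some group (of the 7 groups) showed well above background. A probe could thus enter through the day 24 attachment sites alone, and its p does not allow for that choice. Without the filter, 14 of the 20 called genes stayed called. Differences, standard errors and p-values come from limma 3.58.1 in R 4.3.3, with 7 group means over all 21 arrays, 14 residual and 2.71 prior degrees of freedom, and Benjamini-Hochberg adjustment over all probes tested. Called means an adjusted p under 0.05. The 6 arrays of this comparison limit its precision. RefSeq accessions gave a symbol to 5461 of 5779 probes that carried one (2389 genes); 38142 probes stayed unnamed. Unless stated, a called gene is given at its called probe with the highest mean, and any other gene at its probe with the highest mean over all arrays. A probe below background on every array of a group has only a bound: the bright group's mean against the lowest signal well above background on each dim array, or the probe's own where higher.

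Genes were named by rule: all called genes, the 12 largest differences in each direction among genes above background on all 6 arrays with separate groups, called, bright and extreme members of 27 gene lists, genes above background in 1 group only, and DKK1, FST and PGR; unnamed probes by at most 5 in each direction. The members and the lists were chosen with earlier results of these data known. Alternatives covered the scaling, normexp background correction (offset 50, on gMedianSignal), the filter, the arrays in the fit, slide and replicate blocks, array weights, the variance prior, the probe that stands for a gene, and each array left out. On simulated data for this comparison with 30091 probes, the fit recovered 36%, 70%, 96% and 100% of 50 probes each with a log2 change of 1, 2, 4 and 6, and made 4 false calls. The simulated noise was normal, independent between arrays and of the same spread in every group. It held no outlying array, shared sow or slide effect, so these rates need not hold for the real arrays. Results for some named genes are not reported here.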

Additional observations from a re-analysis of the deposited data

Results flagged for a closer look

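A limma contrast tested whether the site difference itself differed between days, and 9 results passed it. Against day 18, the difference on day 24 was larger by 5.43 for CYP19A3 (SE 0.75, adjusted p = 0.0232), by 4.97 for the probe A_72_P334833 (SE 0.67, adjusted p = 0.0232) and by 3.86 for IL6 (SE 0.56, adjusted p = 0.0312). Against day 13, it was larger by 6.67 for BPI (SE 0.98), by 6.46 for A_72_P001526 (SE 0.96), by 6.31 for A_72_P341813 (SE 0.90), by 5 for CYP19A3 (SE 0.75) and by 3.96 for IL6 (SE 0.56), each with an adjusted p of 0.022, and by 5.5 for A_72_P334833 (SE 0.67, adjusted p = 0.00895). The 3 probes without a symbol had day 24 site differences of 4.36 (A_72_P334833), 5.38 (A_72_P001526) and 6.19 (A_72_P341813), against -1.13, -1.08 and -0.11 on day 13. The day 13 difference of A_72_P001526 leaned on inter-site replicate 1 of that day, an array of low DKK1. Its level there was -2.20, against -4.96 and -4.03 on inter-site replicates 2 and 3 of day 13. BPI, CYP19A3 and A_72_P341813 were not well above background on any site array of days 13 and 18. A_72_P334833 was well above background on 1 inter-site array of each of those days and on 0 attachment-site arrays. The differences of all these probes on those days are between signals near background, and the size of their change is uncertain.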

How the results depend on the processing

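The counts of calls moved with the settings. All 84 called probes had separate groups, so leaving out an array could not turn their sign; under normexp 5 turned. The counts below are the calls for the site difference on day 24, then those for its change against day 18 and against day 13 (84, 3 and 6 as reported). Normexp gave 47, 0 and 3, all 47 higher at attachment sites, against 79 of 84 as reported. Probes above background on all 6 arrays gave 41, 0 and 2, and no filter on dim probes gave 50 on day 24. Slide as a fixed block gave 22, 0 and 0. Array weights gave 313, 9 and 12, and a variance trend with a robust prior gave 0 against day 18. The 6 day 24 arrays alone gave 0 by limma, with 2366 at an unadjusted p under 0.05. The libraries of low DKK1 were inter-site replicate 3 of day 24 and inter-site replicate 1 of day 13, which correlated at 0.970. The change against day 13 thus includes such an array on both days. Without both libraries the counts were 18, 0 and 0. Leaving out each day 24 array in turn gave 12 to 308, 0 to 18 and 1 to 59. Quantile and median scaling, the authors' table and slide as a random block stayed within 1.5 times of the reported counts. Of the 27 list medians, 9 moved by more than their spread under normexp.

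The labels do not pair the arrays, and deviations of same-numbered day 24 arrays correlated at 0.19, 0.08 and 0.08, so the replicate block was kept out of the comparison. The replicate block gave 52, 0 and 0, with 8 of the 20 named genes called, and with the inter-site numbers as in the authors' table, an alternative chosen after seeing the data, 130 on day 24. Attachment-site replicate 3 correlated best with inter-site replicate 2.

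Dim probes have the least certain values: 3 of the 5 negative calls were below background on all attachment-site arrays, and the 3 arrays of a group limit what can be called.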
